A study of Mus musculus with 17 samples.

Results

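The 35 genes described here encode the ligands, receptors and feedback inhibitors of fibroblast growth factor (FGF) signalling in the mouse. They were taken by symbol from the 53090 genes listed in the deposited count tables: 22 genes named Fgf and a number, 5 receptor genes (Fgfr1 to Fgfr4 and Fgfrl1), 4 Sprouty genes (Spry1 to Spry4), 3 Spred genes (Spred1 to Spred3) and the phosphatase gene Dusp6. RNA-seq had been made from 12 libraries in 4 groups. The 4 YAP-M libraries came from brain tumour tissue after in utero electroporation with YAP-M, a YAP fusion protein by the title of the series. The 3 YMdIDR libraries carried YAP-MΔIDR, a form labelled as lacking IDR, and their labels disagree: the source is given as brain tumor tissue, and the tissue as neural progenitor cells derived from ES cells. The 2 NSC-YAP libraries came from cultured neural progenitor cells, derived from ES cells, that overexpressed YAP. The 3 SVZ libraries were labelled wild-type, although their tissue label also reads brain tumor. The labels give neither the promoter that drives the constructs, nor the strain, age or number of animals, nor whether libraries of a group came from separate animals or cultures, so the p-values below measure the spread between libraries, which may be technical. The stated medium for mouse neural stem cells held 2 µg/ml heparin, 20 ng/ml basic FGF (the protein made from Fgf2) and 10 ng/ml EGF. The other 5 samples of the series, from chromatin assays, were not analysed here.

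Secreted FGF ligands bind tyrosine kinase receptors together with heparan sulfate on the cell surface, and the receptors signal through RAS and RAF to the kinases ERK1 and ERK2. ERK activity in turn raises transcription of Dusp6, a phosphatase that inactivates ERK, and of Sprouty and Spred genes, whose products restrain the cascade between receptor and RAF. In the developing brain FGF signalling maintains neural progenitors, and basic FGF is a standard mitogen of neural stem cell cultures. Fgf11 to Fgf14 belong to the family by sequence, but their proteins stay inside the cell, where they bind voltage-gated sodium channels of neurons.

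Levels are given as CPM, the count of a gene per 1000000 counts of its library, with library totals scaled by the TMM method. A gene was tested if it reached 1 CPM in at least 2 libraries, which left 18329 genes. It is called higher or lower in a comparison if edgeR's quasi-likelihood test gave an adjusted p under 0.05 (Benjamini-Hochberg over all tested genes) and the log2 fold change was at least 1 in size. Errors of fold changes are standard errors (SE), those of means are standard deviations (SD). Library totals ran between 20784130 and 25463303 counts, so that 3 counts corresponded to 0.11 to 0.147 CPM. Mitochondrial genes took 4.91% to 6.5% of counts in YAP-M, 5.55% to 6.03% in YMdIDR, 6.96% to 7.05% in NSC-YAP and, highest of all, 12.7% to 17% in SVZ libraries. The summed level of 5 microglia and macrophage markers was 1031 to 1348 CPM in YAP-M and 1031 to 1547 CPM in YMdIDR libraries, against 39.5 to 40.6 CPM in NSC-YAP and 200.2 to 258 CPM in SVZ libraries. The NSC-YAP sum came almost wholly from Cd68 (39.3 to 39.8 CPM), which stood at 13.5 to 14.8 CPM in SVZ. The endothelial marker Cldn5 stood at 14.2 to 30.1 CPM in YMdIDR and at 0 in both NSC-YAP libraries, which does not match a culture of neural progenitors alone. Sox2, a progenitor marker, stood at 476 to 499.9 CPM in NSC-YAP, against 74.6 to 94.4 CPM in SVZ. The SVZ libraries held 24547 to 29108 CPM of 5 oligodendrocyte markers and 3980.1 to 4174 CPM of 6 neuron markers. The YMdIDR libraries differed widely among themselves, with Yap1 at 183 to 1274 CPM. Yap1 stood at 92.7 to 105 CPM in YAP-M, 238 to 241 CPM in NSC-YAP and 21.5 to 27.9 CPM in SVZ, so every YMdIDR library lay above every YAP-M library, and the part of this gap in the differences between the construct groups was not tested. In bulk tissue, fewer cells of a type and less RNA per cell cannot be told apart.

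Of the 35 genes, 28 were tested. In YAP-M against YMdIDR, 9 of the 28 were called higher and 0 lower (4 were lower by edgeR's test at an unadjusted p under 0.05, and DESeq2 called 0 lower). In that comparison 32.1% of the members were called, where 16.4% of all tested genes were called (9.61% higher, 6.78% lower), and the median log2 fold change of the members was 0.61, against 0.01 over all tested genes. In YAP-M against NSC-YAP, 12 were called higher and 9 lower (75% called, against 50.4% of all tested genes, 28.9% higher and 21.6% lower), with a median of 0.05 against 0.10. In YAP-M against SVZ, 9 were called higher and 11 lower (71.4%, against 54.7% of all tested genes, 25.8% higher and 28.9% lower), with a median of -0.28 against -0.04.

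In YMdIDR against NSC-YAP, 7 were called higher and 12 lower (67.9%, against 47.8% of all tested genes, 27.4% higher and 20.4% lower), with a median log2 fold change of -0.36 against 0.13. In YMdIDR against SVZ, 4 were called higher and 13 lower (60.7%, against 56.5%, 26.9% higher and 29.6% lower), with a median of -0.81 against -0.01. In NSC-YAP against SVZ, 8 were called higher and 14 lower (78.6%, against 45.1%, 17.5% higher and 27.6% lower), with a median of -0.94 against -0.10. These comparisons share groups and are not independent of each other. The heat map shows all 35 genes by library.

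**Figure D1:**
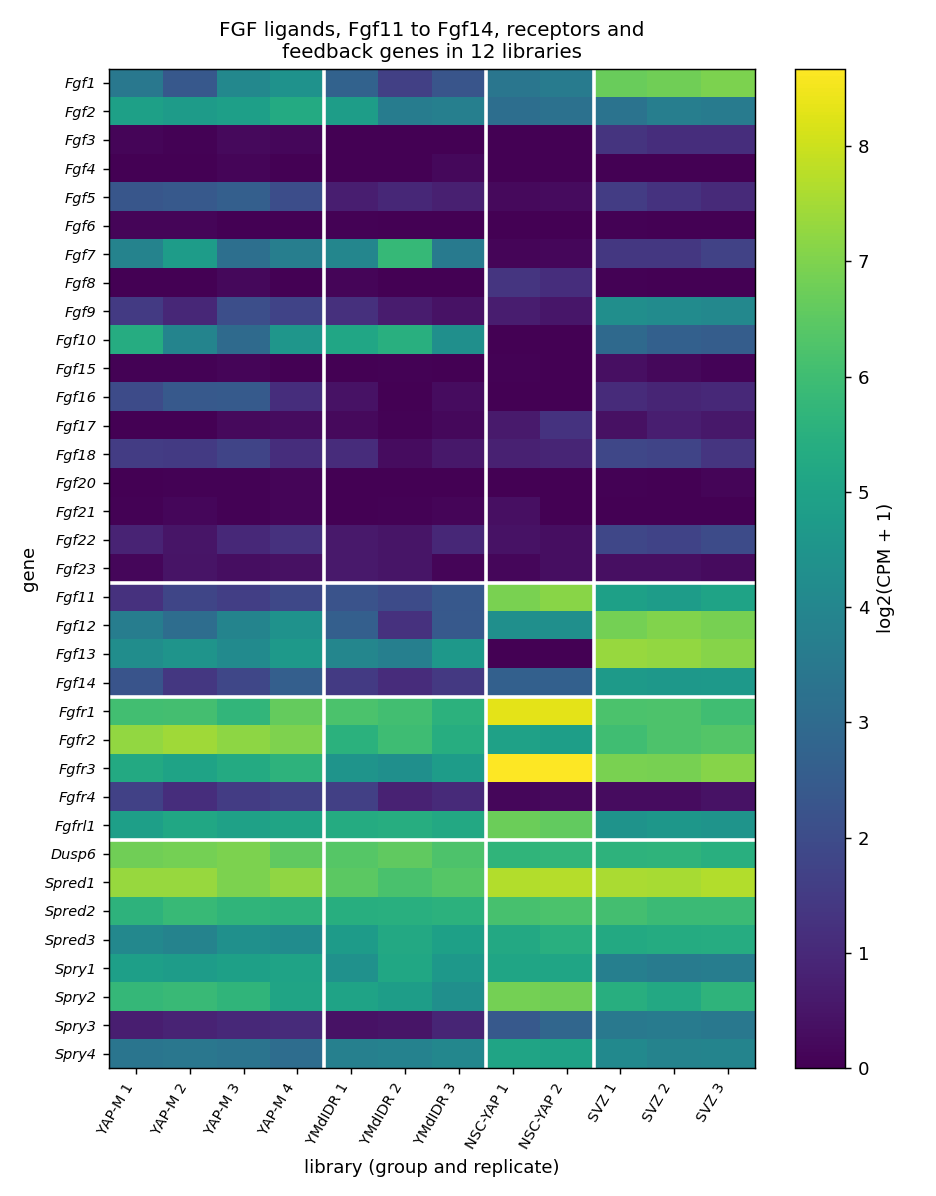
Level of each of the 35 genes (rows, grouped as secreted ligands, Fgf11 to Fgf14, receptors and feedback genes) in each of the 12 libraries (columns), as log2(CPM + 1); white lines separate groups. Fgf1, Fgf9 and Fgf11 to Fgf14 are brightest in SVZ or NSC-YAP libraries, Fgf7 and Fgf10 in YAP-M and YMdIDR, and Fgfr1 and Fgfr3 in NSC-YAP.

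Secreted ligands were present in the tumours as a set of a few genes at moderate level. Of the 18 secreted ligand genes, 8 had a mean of at least 1 CPM in YAP-M, 4 in YMdIDR, 3 in NSC-YAP and 9 in SVZ. Their summed level was 77.0 to 105 CPM in YAP-M, 49.5 to 115 CPM in YMdIDR, 21.8 to 24.5 CPM in NSC-YAP and 148 to 168 CPM in SVZ libraries. Among the 11 that were tested, 6 were called higher in YAP-M than in YMdIDR and 5 were not called, where 9.61% of all tested genes were called higher. Against SVZ, 5 rose and 4 fell in YAP-M (all tested genes: 25.8% higher, 28.9% lower), and 2 rose and 6 fell in YMdIDR (26.9% higher, 29.6% lower). Against NSC-YAP, 8 rose and 1 fell in YAP-M (all tested genes: 28.9% higher, 21.6% lower), and 5 rose and 2 fell in YMdIDR (27.4% higher, 20.4% lower). In NSC-YAP against SVZ, 1 rose and 9 fell (all tested genes: 17.5% higher, 27.6% lower).

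Fgf10 and Fgf7, ligands that mesenchymal cells make and that act mainly on the epithelial splice form of Fgfr2, were the secreted ligands with high levels in both construct groups and next to none in the cultured progenitors. Fgf10 had 39.9, 13.9, 7.03 and 22.8 CPM in the YAP-M libraries, 33.7, 43.6 and 19.0 CPM in the YMdIDR libraries, 0 in both NSC-YAP libraries and 6.72, 5.30 and 4.84 CPM in the SVZ libraries. All libraries of both construct groups lay above all SVZ libraries, the nearest being YAP-M 3. Fgf10 rose against SVZ by 1.89 ± 0.53 in YAP-M (log2, SE; edgeR adjusted p = 0.00727) and by 2.51 ± 0.56 in YMdIDR (adjusted p = 0.00193). Against the 0 counts of NSC-YAP, taken as 3 counts over the group, it was at least 350.2-fold higher in YAP-M, at least 524-fold higher in YMdIDR and at least 92.2-fold lower in NSC-YAP than in SVZ. Between the construct groups the log2 fold change was -0.62 ± 0.48 (adjusted p = 0.325) and the libraries overlapped.

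Fgf7 had 13.8, 27, 7.93 and 12 CPM in YAP-M, 14.9, 55.0 and 11 CPM in YMdIDR, 0.0814 and 0.122 CPM in NSC-YAP and 1.66, 1.62 and 2.3 CPM in SVZ libraries. The library YMdIDR 2 stood highest, and every library of the construct groups lay above every other library. Fgf7 rose against SVZ by 3.03 ± 0.62 in YAP-M (log2, edgeR adjusted p = 0.000846) and by 3.86 ± 0.65 in YMdIDR (adjusted p = 0.000218; 2.83 without YMdIDR 2). Against NSC-YAP it rose by 7.15 ± 1.06 in YAP-M (adjusted p = 0.000102) and by 7.98 ± 1.08 in YMdIDR (adjusted p = 5.75e-05; 6.93 without YMdIDR 2). Its log2 fold change in YAP-M against YMdIDR was -0.83 ± 0.52 (adjusted p = 0.219), and it turned to 0.26 without YMdIDR 2. The summed level of 5 fibroblast and pericyte markers was 268 to 702 CPM in YAP-M, 278 to 737 CPM in YMdIDR, 5.18 to 5.86 CPM in NSC-YAP and 242 to 289 CPM in SVZ libraries. Of these markers Col1a1 stood at 80.6 to 258 CPM in YAP-M, 94.6 to 400.2 CPM in YMdIDR, 4.65 to 5.09 CPM in NSC-YAP and 40.0 to 50.1 CPM in SVZ, and Dcn at 61.3 to 267 CPM in YAP-M, 10.5 to 219 CPM in YMdIDR, 0.0408 to 0.204 CPM in NSC-YAP and 9.76 to 17.8 CPM in SVZ. Pdgfrb stood at 54.4 to 71.9 CPM in YAP-M, 68.9 to 117 CPM in YMdIDR, 0.163 CPM in NSC-YAP and 26.8 to 32.2 CPM in SVZ. The pericyte gene Rgs5 was higher in SVZ, with at least 63.5 CPM in YAP-M, 41.2 to 76.0 CPM in YMdIDR and 0.326 to 0.407 CPM in NSC-YAP, all below the 153 CPM of the lowest SVZ library. Lum overlapped between the construct groups and SVZ and was at 0 in both NSC-YAP libraries. Of the 5 markers, 3 were called higher and 1 lower against SVZ in YAP-M and likewise in YMdIDR. The part of these markers in the Fgf7 and Fgf10 levels was not tested.

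Fgf2, the gene of basic FGF, was higher in YAP-M tumours than in SVZ or in the cultured progenitors. It had 29.7, 25.8, 29.0 and 38.6 CPM in YAP-M, 27.3, 11.6 and 12.5 CPM in YMdIDR, 7.82 and 8.48 CPM in NSC-YAP and 8.84, 12 and 11.1 CPM in SVZ libraries. The YAP-M libraries lay above those of SVZ and NSC-YAP, while YMdIDR 1 lay within the YAP-M range and the other YMdIDR libraries near SVZ. Fgf2 rose in YAP-M by 1.92 ± 0.34 against NSC-YAP (log2, edgeR adjusted p = 0.000399) and by 1.53 ± 0.29 against SVZ (adjusted p = 0.000461). In YAP-M against YMdIDR its log2 fold change was 0.85 ± 0.28 and not called (adjusted p = 0.0296), and the gene was called without YMdIDR 1, at 1.36. The NSC-YAP cells had basic FGF protein in the stated medium, and what that did to Fgf2 or any other gene was not tested.

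Fgf5 and Fgf16 were higher in YAP-M than in each of the other groups. Fgf5, known for limiting the growth phase of hair follicles, had 4.01, 4.34, 5.16 and 3.12 CPM in YAP-M, 0.641, 0.946 and 0.707 CPM in YMdIDR, 0.163 and 0.204 CPM in NSC-YAP and 1.89, 1.39 and 1.03 CPM in SVZ libraries. The 4 groups did not overlap with each other. Fgf5 rose in YAP-M by 2.43 ± 0.29 against YMdIDR (log2, edgeR adjusted p = 0.000145), by 4.46 ± 0.41 against NSC-YAP (adjusted p = 2.61e-06) and by 1.53 ± 0.27 against SVZ (adjusted p = 0.000337). In YMdIDR against SVZ its log2 fold change was -0.91 ± 0.31 and not called (adjusted p = 0.0176), and it was called lower without YMdIDR 2 (-1.07) and without SVZ 3 (-1.09).

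Fgf16, known from heart development in mice, had 2.98, 4.34, 4.52 and 1.22 CPM in YAP-M, 0.342, 0 and 0.221 CPM in YMdIDR, 0 in both NSC-YAP libraries and 1.11, 0.854 and 0.977 CPM in SVZ libraries. YAP-M 4 was the lowest of its group and lay just above the highest SVZ library. Fgf16 passed the filter only through its YAP-M libraries, so its being tested was tied to its level there. Fgf16 rose in YAP-M by 4.07 ± 0.71 against YMdIDR (log2, edgeR adjusted p = 0.00152; 4.81 without YMdIDR 1), by 1.73 ± 0.58 against SVZ (adjusted p = 0.019) and at least 52.7-fold against NSC-YAP. The call against SVZ was lost without SVZ 2 (1.70) and without SVZ 3 (1.78). Fgf16 fell in YMdIDR against SVZ, with a log2 fold change of -2.34 ± 0.75 (adjusted p = 0.0154; -3.08 without YMdIDR 1 and -1.75 without YMdIDR 2).

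Fgf1 and Fgf9 showed the opposite order, with the highest levels in SVZ tissue. Fgf1, which binds all FGF receptors, had 10.0, 4.19, 15.7 and 20.2 CPM in YAP-M, 5.68, 2.16 and 3.84 CPM in YMdIDR, 9.57 and 11.3 CPM in NSC-YAP and 102, 109.7 and 125 CPM in SVZ libraries. Every SVZ library lay above every other library, and YAP-M and YMdIDR overlapped. Fgf1 fell against SVZ, with a log2 fold change of -3.16 ± 0.43 in YAP-M (edgeR adjusted p = 4.39e-05), of -4.85 ± 0.53 in YMdIDR (adjusted p = 7.54e-06) and of -3.43 ± 0.58 in NSC-YAP (adjusted p = 0.000313). It was called higher in YAP-M than in YMdIDR, by 1.68 ± 0.46 (adjusted p = 0.0134). Reads from Arhgap26, which overlaps Fgf1 on the other strand, cannot be told apart from those of Fgf1 unless the counting used strand, which is not given in the sources used here.

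Fgf9, a ligand that neurons make in the adult brain, had 1.80, 0.963, 3.24 and 2.34 CPM in YAP-M, 1.32, 0.586 and 0.353 CPM in YMdIDR, 0.611 and 0.449 CPM in NSC-YAP and 18.3, 17.3 and 15.5 CPM in SVZ libraries. The SVZ libraries stood apart, and YAP-M overlapped with YMdIDR only through YAP-M 2 and YMdIDR 1. Fgf9 fell against SVZ, with a log2 fold change of -3.03 ± 0.40 in YAP-M (edgeR adjusted p = 3.55e-05), of -4.48 ± 0.50 in YMdIDR (adjusted p = 8.09e-06; -5.17 without YMdIDR 1) and of -5.00 ± 0.61 in NSC-YAP (adjusted p = 2.85e-05). In YAP-M against YMdIDR it was called higher by 1.45 ± 0.46 (adjusted p = 0.0248; 2.13 without YMdIDR 1). That call was lost without YAP-M 3 (1.18), YMdIDR 2 (1.33) or YMdIDR 3 (1.11), and on the libraries of the compared groups alone (1.46).

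The remaining tested ligands were low. Fgf18 had 1.19 to 2.47 CPM in YAP-M, 0.225 to 1.15 CPM in YMdIDR, 0.733 to 0.856 CPM in NSC-YAP and 1.51 to 2.62 CPM in SVZ. It was called higher in YAP-M than in YMdIDR by 1.55 ± 0.47 (log2, edgeR adjusted p = 0.0204; 2.35 without YMdIDR 1), and the call was lost without YMdIDR 2 (1.19) or YMdIDR 3 (1.39) and on the compared groups alone (1.56). Fgf22, a presynaptic organiser in the mouse brain, had 0.408 to 1.34 CPM in YAP-M, 0.405 to 0.972 CPM in YMdIDR, 0.245 to 0.326 CPM in NSC-YAP and 2.38 to 2.98 CPM in SVZ. It fell against SVZ, with a log2 fold change of -1.56 ± 0.38 in YAP-M, of -2.06 ± 0.43 in YMdIDR and of -3.19 ± 0.55 in NSC-YAP. Fgf8, a signal of early brain patterning, was seen almost entirely in the cultured progenitors, at 1.51 and 1.18 CPM (66 counts in all), against 3 counts in all in YAP-M, all of them in YAP-M 3, 2 in YMdIDR and 1 in SVZ. It was 46.9-fold lower in YAP-M than in NSC-YAP (95% counting interval 15.4 to 233) and 45.9-fold lower in YMdIDR (12.2 to 387), and it was called in both comparisons and in NSC-YAP against SVZ. Fgf8 passed the filter only through its NSC-YAP libraries, so its being tested, and these calls, were tied to its level there. Fgf3 had 0.0371 to 0.17 CPM in YAP-M, 0 in YMdIDR and NSC-YAP and 1.21 to 1.47 CPM in SVZ, and it passed the filter only through its SVZ libraries. Its 10 counts over the YAP-M group put it 2.17-fold above YMdIDR, with YMdIDR set at 3 counts and the error of the 10 counts left out.

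**Figure D2:**
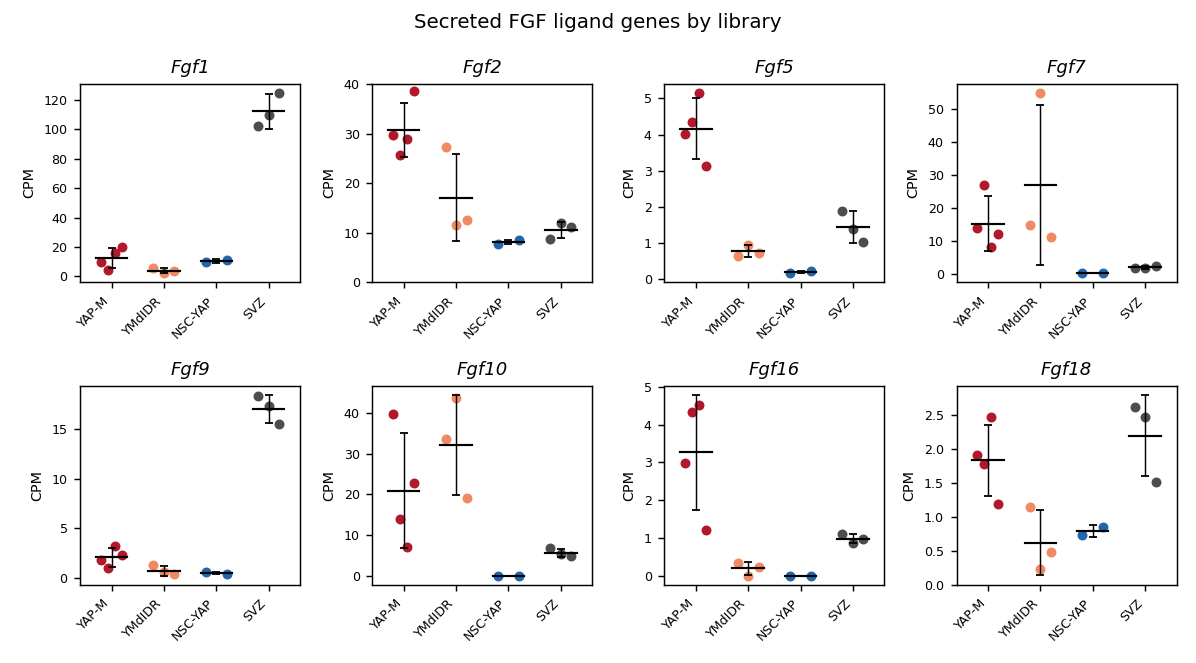
CPM of 8 secreted ligand genes in each library (points), with the group mean (long bar) and SD (error bar) for YAP-M (n = 4), YMdIDR (n = 3), NSC-YAP (n = 2) and SVZ (n = 3). Fgf5 and Fgf16 are highest in YAP-M, Fgf1 and Fgf9 in SVZ, and Fgf10 reads 0 in both NSC-YAP libraries.

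The 7 genes that did not reach the filter were Fgf4, Fgf6, Fgf15, Fgf17, Fgf20, Fgf21 and Fgf23. Over all 12 libraries Fgf4 had 5 counts, Fgf6 had 6, Fgf20 had 7, Fgf15 had 16 and Fgf21 had 17. Fgf23 had 75 counts, at most 0.513 CPM in a library. Fgf17 had 98 counts and reached 1.43 CPM in NSC-YAP 2 alone, against 0.529 CPM in NSC-YAP 1.

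The regions before the RefSeq starts of Fgf5, Fgfr2, Fgf10 and Spry1 are shown because these genes stand for the patterns seen: the first pair was higher in YAP-M than in every other group, Fgf10 was at 0 in the cultured progenitors, and Spry1 was higher in all 3 other groups than in SVZ. Each is the 250 bases before the start, 5′ to 3′ on the gene's strand, from RefSeq on build GRCm38.p6. They lie at chr5:98253934-98254183 on the plus strand (Fgf5), chr7:130266809-130267058 on the minus strand (Fgfr2), chr13:118714449-118714698 on the plus strand (Fgf10) and chr3:37639697-37639946 on the plus strand (Spry1). Capitals mark matches to any of 3 motifs, searched on both strands: GGAATG for TEAD factors (the DNA-binding partners of YAP), TGANTCA for AP-1 and CCGGAA for ETS factors.
Fgf5: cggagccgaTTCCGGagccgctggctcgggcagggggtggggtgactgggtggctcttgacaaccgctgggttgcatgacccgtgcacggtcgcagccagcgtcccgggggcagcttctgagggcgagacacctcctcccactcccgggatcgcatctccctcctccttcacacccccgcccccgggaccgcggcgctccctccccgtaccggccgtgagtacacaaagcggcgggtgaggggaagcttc
Fgfr2: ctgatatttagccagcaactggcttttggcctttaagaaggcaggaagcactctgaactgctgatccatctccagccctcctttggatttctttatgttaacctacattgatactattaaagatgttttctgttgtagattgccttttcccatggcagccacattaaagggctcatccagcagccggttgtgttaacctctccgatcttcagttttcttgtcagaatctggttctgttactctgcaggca
Fgf10: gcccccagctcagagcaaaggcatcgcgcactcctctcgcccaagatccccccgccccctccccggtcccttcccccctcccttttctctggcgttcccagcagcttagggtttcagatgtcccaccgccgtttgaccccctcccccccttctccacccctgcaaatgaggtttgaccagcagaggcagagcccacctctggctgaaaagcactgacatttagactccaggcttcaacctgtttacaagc
Spry1: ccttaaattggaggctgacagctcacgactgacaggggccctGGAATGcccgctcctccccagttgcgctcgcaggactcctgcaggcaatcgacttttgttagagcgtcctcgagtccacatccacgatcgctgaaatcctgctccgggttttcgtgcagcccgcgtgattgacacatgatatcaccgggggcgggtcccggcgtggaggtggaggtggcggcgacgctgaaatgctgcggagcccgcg

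The Fgf5 window holds an ETS match at base -241 from the start, on the other strand, and the Spry1 window a TEAD match at base -208. The Fgfr2 and Fgf10 windows hold none of the 3 motifs. Windows were found for 26 of the 35 genes, 33 in all, since some genes have several starts. A TEAD match occurred in windows of 4 members (Spry1, Fgf3, Fgf11 and Fgf12), an AP-1 match in those of 2 (Fgf12 and Fgf13) and an ETS match in those of 4 (Fgf5, Fgf12, Fgfr4 and Fgfrl1). Of all 32851 windows of the same length, 12.6% held a TEAD match, 6.75% an AP-1 match and 12% an ETS match. A match is a run of letters and does not show that a factor binds there. The gene Fgf10 begins upstream of this RefSeq start in the deposited tables.

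The intracellular members Fgf12, Fgf13 and Fgf14 were highest in SVZ, and Fgf11 in the cultured progenitors. All 4 fell in YAP-M and in YMdIDR against SVZ, where 28.9% and 29.6% of all tested genes were called lower. Fgf13 had 17.9, 21.2, 16.7 and 24.4 CPM in YAP-M, 14.7, 12.4 and 23.8 CPM in YMdIDR, 0 in both NSC-YAP libraries and 162, 152 and 136 CPM in SVZ libraries. YAP-M and YMdIDR overlapped, while NSC-YAP was the lowest and SVZ the highest group. Fgf13 fell against SVZ, with a log2 fold change of -2.90 ± 0.22 in YAP-M (edgeR adjusted p = 9.29e-07) and of -3.14 ± 0.24 in YMdIDR (adjusted p = 1.1e-06), and it was at least 2456-fold lower in NSC-YAP than in SVZ. It was at least 329.6-fold higher in YAP-M and at least 278-fold higher in YMdIDR than in NSC-YAP.

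Fgf12 had 11.9, 7.48, 14.0 and 20.4 CPM in YAP-M, 5.17, 1.35 and 4.33 CPM in YMdIDR, 18.8 CPM in each NSC-YAP library and 116, 129.8 and 117 CPM in SVZ libraries. All YAP-M libraries lay above all YMdIDR libraries, and SVZ stood apart. It fell against SVZ, with a log2 fold change of -3.17 ± 0.37 in YAP-M (edgeR adjusted p = 1.36e-05) and of -5.06 ± 0.46 in YMdIDR (adjusted p = 1.85e-06), and it was called higher in YAP-M than in YMdIDR by 1.89 ± 0.40 (adjusted p = 0.00362). Fgf14, whose human gene is mutated in a spinocerebellar ataxia, had 3.72, 1.67, 2.60 and 5.16 CPM in YAP-M, 1.75, 1.17 and 1.72 CPM in YMdIDR, 5.29 and 5.34 CPM in NSC-YAP and 25.5, 23.8 and 24.5 CPM in SVZ libraries. YAP-M 2 lay within the YMdIDR range. Fgf14 fell against SVZ, with a log2 fold change of -2.90 ± 0.30 in YAP-M (adjusted p = 5.52e-06) and of -3.99 ± 0.36 in YMdIDR (adjusted p = 1.73e-06). Its call as higher in YAP-M than in YMdIDR (1.08 ± 0.33, adjusted p = 0.0209) was lost without YAP-M 4 (0.80) or YMdIDR 2 (0.95), and on the compared groups alone (1.09).

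Fgf11 had 1.36, 2.52, 2.05 and 2.71 CPM in YAP-M, 3.68, 2.97 and 4.20 CPM in YMdIDR, 122 and 138 CPM in NSC-YAP and 29.8, 26.9 and 31.4 CPM in SVZ libraries. No groups overlapped, with NSC-YAP highest and YAP-M lowest. It fell against NSC-YAP, with a log2 fold change of -5.91 ± 0.22 in YAP-M (edgeR adjusted p = 6.22e-09) and of -5.16 ± 0.24 in YMdIDR (adjusted p = 2.09e-08), and it rose in NSC-YAP against SVZ by 2.14 ± 0.21 (adjusted p = 6.25e-06). Its log2 fold change in YAP-M against YMdIDR was -0.74 ± 0.21 and not called (adjusted p = 0.0143).

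The summed level of the 4 genes was 32.8 to 52.7 CPM in YAP-M, 17.9 to 34.1 CPM in YMdIDR, 146 to 162 CPM in NSC-YAP and 308 to 334 CPM in SVZ libraries. The summed level of 6 neuron markers stood in the same order of groups, and was 186 to 481 CPM in YAP-M, 43.7 to 219 CPM in YMdIDR, 724 to 792 CPM in NSC-YAP and 3980.1 to 4174 CPM in SVZ libraries. Snap25, a SNARE protein gene of synapses, stood at 26.0 to 163 CPM in YAP-M, 6.4 to 57.7 CPM in YMdIDR, 1.79 to 2.32 CPM in NSC-YAP and 1177 to 1281 CPM in SVZ, so the NSC-YAP sum came mostly from Map2 (654 to 719.9 CPM). The NSC-YAP sum of Fgf11 to Fgf14 came mostly from Fgf11 (122 and 138 CPM), with Fgf13 at 0. YMdIDR 2, the library with the lowest neuron marker sum, also had the lowest levels of Fgf1 and Fgf11 to Fgf14 of its group. Fgf9 went the other way, being lowest in YMdIDR 3 (0.353 CPM) and not in YMdIDR 2 (0.586 CPM). The part of neuron RNA in the levels of Fgf1, Fgf9 and Fgf11 to Fgf14 was not tested.

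The receptor genes differed between groups: Fgfr2 was highest in YAP-M, and Fgfr1, Fgfr3 and Fgfrl1 were highest in the cultured progenitors. Fgfr2 had 152, 170.3, 145 and 126 CPM in YAP-M, 45, 61.9 and 41.6 CPM in YMdIDR, 30.5 and 28.4 CPM in NSC-YAP and 64.0, 74.5 and 79.9 CPM in SVZ libraries. No groups overlapped, and the order was YAP-M, SVZ, YMdIDR, NSC-YAP. Fgfr2 rose in YAP-M by 1.59 ± 0.15 against YMdIDR (log2, edgeR adjusted p = 5.26e-05), by 2.33 ± 0.19 against NSC-YAP (adjusted p = 9.47e-07) and by 1.03 ± 0.15 against SVZ (adjusted p = 7.61e-05; 0.99, and so not called, without SVZ 1). In YMdIDR against SVZ its log2 fold change was -0.56 ± 0.16 and not called (adjusted p = 0.00721). In the deposited tables the Fgfr2 entry spans 2960900 bases (chr7:130162451-133123350, mm10) and takes in the spans of 69 other genes, against 104358 bases in RefSeq. Which reads the added exons collected was not tested.

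Fgfr3, a receptor of astrocytes and radial glia, had 37.7, 31.5, 38.1 and 47.4 CPM in YAP-M, 21.2, 19.0 and 26.5 CPM in YMdIDR, 404 and 407 CPM in NSC-YAP and 122, 118 and 135 CPM in SVZ libraries. The groups did not overlap. Fgfr3 fell in YAP-M, with a log2 fold change of -3.39 ± 0.16 against NSC-YAP (edgeR adjusted p = 1.69e-08) and of -1.69 ± 0.14 against SVZ (adjusted p = 1.12e-06). It fell in YMdIDR, with a log2 fold change of -4.19 ± 0.18 and -2.49 ± 0.16 against the same groups (adjusted p = 1.16e-08 and 1.5e-07). In NSC-YAP it rose by 1.70 ± 0.17 against SVZ (adjusted p = 5.6e-06), and in YAP-M against YMdIDR its log2 fold change was 0.80 ± 0.15 and not called (adjusted p = 0.0016).

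Fgfr1, a receptor widely expressed in neural progenitors, had 65.4, 66.3, 51.6 and 97.3 CPM in YAP-M, 73.3, 64.9 and 46.9 CPM in YMdIDR, 318 and 319 CPM in NSC-YAP and 73.2, 75.3 and 63.5 CPM in SVZ libraries. YAP-M, YMdIDR and SVZ overlapped and NSC-YAP stood apart. It fell against NSC-YAP, with a log2 fold change of -2.18 ± 0.22 in YAP-M (edgeR adjusted p = 4.76e-06) and of -2.37 ± 0.24 in YMdIDR (adjusted p = 5.8e-06), and it rose in NSC-YAP against SVZ by 2.17 ± 0.24 (adjusted p = 1.22e-05). Fgfrl1, a receptor without a kinase domain, had 28.9, 35.0, 29.9 and 32.1 CPM in YAP-M, 39.7, 41.1 and 36.3 CPM in YMdIDR, 105 and 94.4 CPM in NSC-YAP and 20.9, 23.0 and 21.6 CPM in SVZ libraries. No groups overlapped. It fell against NSC-YAP, with a log2 fold change of -1.66 ± 0.10 in YAP-M (adjusted p = 1.22e-07) and of -1.35 ± 0.11 in YMdIDR (adjusted p = 1.12e-06), and it rose in NSC-YAP against SVZ by 2.19 ± 0.11 (adjusted p = 6.69e-08).

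Fgfr4 was the lowest receptor gene per kilobase in every group. It had 1.19 to 2.3 CPM in YAP-M and 0.766 to 2.09 CPM in YMdIDR, against 0.122 to 0.163 CPM in NSC-YAP and 0.225 to 0.342 CPM in SVZ. It rose in YAP-M by 3.68 ± 0.56 against NSC-YAP (log2, edgeR adjusted p = 0.000121) and by 2.81 ± 0.44 against SVZ (adjusted p = 0.000117). It rose in YMdIDR by 3.15 ± 0.57 and 2.28 ± 0.46 against the same groups (edgeR adjusted p = 0.000506 and 0.000763). Fgfr4 passed the filter only through its YAP-M and YMdIDR libraries, so its being tested, and these calls, were tied to its level there.

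Per kilobase of the gene length given in the deposited tables, Fgfr2 was the leading kinase receptor in YAP-M and Fgfr3 in NSC-YAP and SVZ. Both the counts and the length of Fgfr2 come from the extended entry described above. What that did to the ranking and the shares was not tested. Mean levels per kilobase in YAP-M were 14.4 ± 1.76 CPM for Fgfr2, 7.10 ± 1.96 for Fgfr1, 5.40 ± 0.919 for Fgfr3 and 0.535 ± 0.141 for Fgfr4 (SD, n = 4). As a share of the per-kilobase sum of Fgfr1 to Fgfr4, Fgfr2 took a mean of 52.7% in YAP-M (range 41.7% to 59.0%), 32.9% in YMdIDR (28.5% to 38.8%), 3.10% in NSC-YAP and 22.2% in SVZ (20.2% to 23.4%). The Fgfr3 share was 19.7% in YAP-M, 21.8% in YMdIDR, 61.7% in NSC-YAP and 55.0% in SVZ. The Fgfr1 share was 25.7% in YAP-M, 42.7% in YMdIDR, 35.1% in NSC-YAP and 22.6% in SVZ. The Fgfr2 ranges of YAP-M and YMdIDR did not overlap. Splice forms are not resolved in these gene counts, so the form of Fgfr2 that binds Fgf7 and Fgf10 was not measured.

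**Figure D3:**
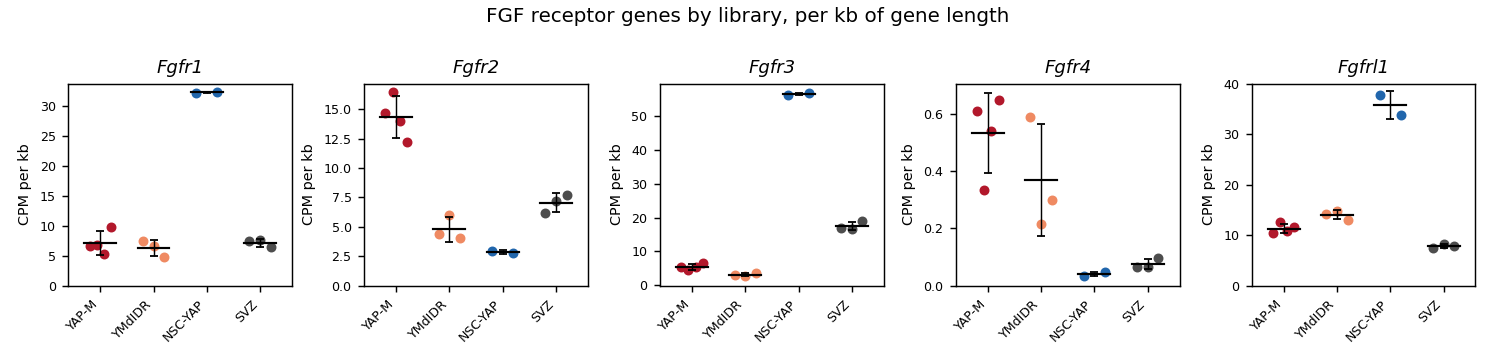
Level of each receptor gene per library (points), as CPM per kilobase of the gene length in the deposited tables, with group mean (long bar) and SD (error bar) for YAP-M (n = 4), YMdIDR (n = 3), NSC-YAP (n = 2) and SVZ (n = 3). Fgfr2 averages 14.4 in YAP-M, and Fgfr3 averages 56.7 in NSC-YAP. Counts and length of Fgfr2 are those of its extended entry.

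The feedback genes did not move as a block. None of the 8 was called between YAP-M and YMdIDR, by the main edgeR fit or by DESeq2, where edgeR called 16.4% of all tested genes. At an unadjusted p under 0.05 edgeR put 4 higher and 2 lower in YAP-M. Of these, Spred1, Spry2, Dusp6, Spred3 and Spry4 also had an adjusted p under 0.05, but not the fold needed for a call. Against SVZ, 2 rose and 2 fell in YAP-M (54.7% of all tested genes were called), 1 rose and 2 fell in YMdIDR (56.5%), and 3 rose and 1 fell in NSC-YAP (45.1%). Against NSC-YAP, 1 rose and 4 fell in YAP-M (50.4% of all tested genes were called), and 0 rose and 4 fell in YMdIDR (47.8%; 1 was higher by edgeR at an unadjusted p under 0.05, and DESeq2 called 0 higher). These counts of called feedback genes lay near or under the share over all tested genes in each comparison with SVZ.

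Dusp6, the phosphatase that follows ERK activity, was highest in YAP-M. It had 109.8, 115, 124 and 93.0 CPM in YAP-M, 83.0, 92.1 and 75.4 CPM in YMdIDR, 49.8 and 51.1 CPM in NSC-YAP and 48.3, 48.7 and 43.2 CPM in SVZ libraries. No groups overlapped, although the lowest YAP-M library and the highest YMdIDR library nearly met. Dusp6 rose in YAP-M by 1.13 ± 0.13 against NSC-YAP (log2, edgeR adjusted p = 1.38e-05) and by 1.24 ± 0.11 against SVZ (adjusted p = 1.87e-06). In YMdIDR its log2 fold change was 0.73 ± 0.13 against NSC-YAP (adjusted p = 0.000507) and 0.84 ± 0.12 against SVZ (adjusted p = 4.98e-05), under the fold needed for a call. In YAP-M against YMdIDR its log2 fold change was 0.40 ± 0.11 and not called (adjusted p = 0.0122).

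The Sprouty genes differed in pattern among themselves. Spry1 had 29.0, 26.6, 29.8 and 31.9 CPM in YAP-M, 19.7, 35.0 and 23.7 CPM in YMdIDR, 32.9 and 33.4 CPM in NSC-YAP and 12.3, 11.1 and 11.8 CPM in SVZ libraries. SVZ lay below all the others. Spry1 rose against SVZ by 1.32 ± 0.17 in YAP-M (log2, edgeR adjusted p = 3.19e-05), by 1.15 ± 0.18 in YMdIDR (adjusted p = 0.000125; 0.91, and so not called, without YMdIDR 2) and by 1.5 ± 0.20 in NSC-YAP (adjusted p = 4.91e-05).

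Spry2 had 53.4, 58.1, 50.0 and 32.7 CPM in YAP-M, 32.0, 27.1 and 18.8 CPM in YMdIDR, 115 and 111 CPM in NSC-YAP and 42.3, 37.0 and 48.8 CPM in SVZ libraries. NSC-YAP stood apart, and YAP-M 4 lay just above the top of the YMdIDR range. Spry2 fell against NSC-YAP, with a log2 fold change of -1.22 ± 0.23 in YAP-M (edgeR adjusted p = 0.000551) and of -2.13 ± 0.25 in YMdIDR (adjusted p = 1.8e-05), and it rose in NSC-YAP against SVZ by 1.41 ± 0.25 (adjusted p = 0.000393). Its log2 fold change in YAP-M against YMdIDR was 0.90 ± 0.21 and not called (adjusted p = 0.00625), and the gene was called without YAP-M 4 or without YMdIDR 1, at 1.08 each. It was also called, at 1.07, in a fit with replicate number as a block.

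Spry4 had 9.31, 9.74, 9.12 and 7.61 CPM in YAP-M, 12.7, 13.4 and 15.2 CPM in YMdIDR, 32.7 and 30.6 CPM in NSC-YAP and 16.2, 13.7 and 13.9 CPM in SVZ libraries. YAP-M was the lowest group and did not overlap with any other. Spry4 fell against NSC-YAP, with a log2 fold change of -1.82 ± 0.13 in YAP-M (edgeR adjusted p = 4.48e-07) and of -1.20 ± 0.14 in YMdIDR (adjusted p = 2.26e-05), and it rose in NSC-YAP against SVZ by 1.12 ± 0.14 (adjusted p = 4.26e-05). In YAP-M against YMdIDR its log2 fold change was -0.62 ± 0.12 and not called (adjusted p = 0.00235), the opposite sign to Dusp6 and Spry2. Spry3, the least abundant Sprouty gene per kilobase in every group, had 0.662, 0.815, 0.98 and 1.08 CPM in YAP-M, 0.342, 0.405 and 0.883 CPM in YMdIDR, 4.32 and 6.20 CPM in NSC-YAP and 10.3, 11.3 and 10.0 CPM in SVZ libraries. SVZ was highest and the construct groups overlapped at the low end. Spry3 fell against SVZ, with a log2 fold change of -3.57 ± 0.29 in YAP-M (adjusted p = 9.05e-07) and of -4.27 ± 0.35 in YMdIDR (adjusted p = 7.73e-07).

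Among the Spred genes, whose products bind neurofibromin and hold back RAS, Spred1 was lower in YMdIDR than in SVZ and in NSC-YAP. It had 161, 159, 125 and 151 CPM in YAP-M, 88.7, 72.4 and 83.2 CPM in YMdIDR, 202 and 208 CPM in NSC-YAP and 188, 184 and 202 CPM in SVZ libraries. YMdIDR lay below all other groups, and YAP-M below NSC-YAP and SVZ. Spred1 fell in YMdIDR, with a log2 fold change of -1.33 ± 0.12 against NSC-YAP (edgeR adjusted p = 2.97e-06) and of -1.23 ± 0.11 against SVZ (adjusted p = 1.95e-06). Its log2 fold change in YAP-M against YMdIDR was 0.87 ± 0.11 and not called (adjusted p = 0.000168).

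Spred3 had 15.6, 13.7, 19.4 and 17.7 CPM in YAP-M, 26.2, 37.0 and 29.5 CPM in YMdIDR, 36.9 and 43.6 CPM in NSC-YAP and 37.9, 39.8 and 40.5 CPM in SVZ libraries. YAP-M lay below all other groups. Spred3 fell in YAP-M, with a log2 fold change of -1.28 ± 0.16 against NSC-YAP (edgeR adjusted p = 2.82e-05) and of -1.25 ± 0.15 against SVZ (adjusted p = 1.29e-05). In YAP-M against YMdIDR its log2 fold change was -0.90 ± 0.15 and not called (adjusted p = 0.000781), the opposite sign to Spred1, and it was called lower without YMdIDR 1 (-1.0). Spred2 was called in no comparison, with 47.8 to 56.3 CPM in YAP-M, 42.0 to 46.8 CPM in YMdIDR, 69.6 to 72.5 CPM in NSC-YAP and 58.9 to 67.2 CPM in SVZ.

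**Figure D4:**
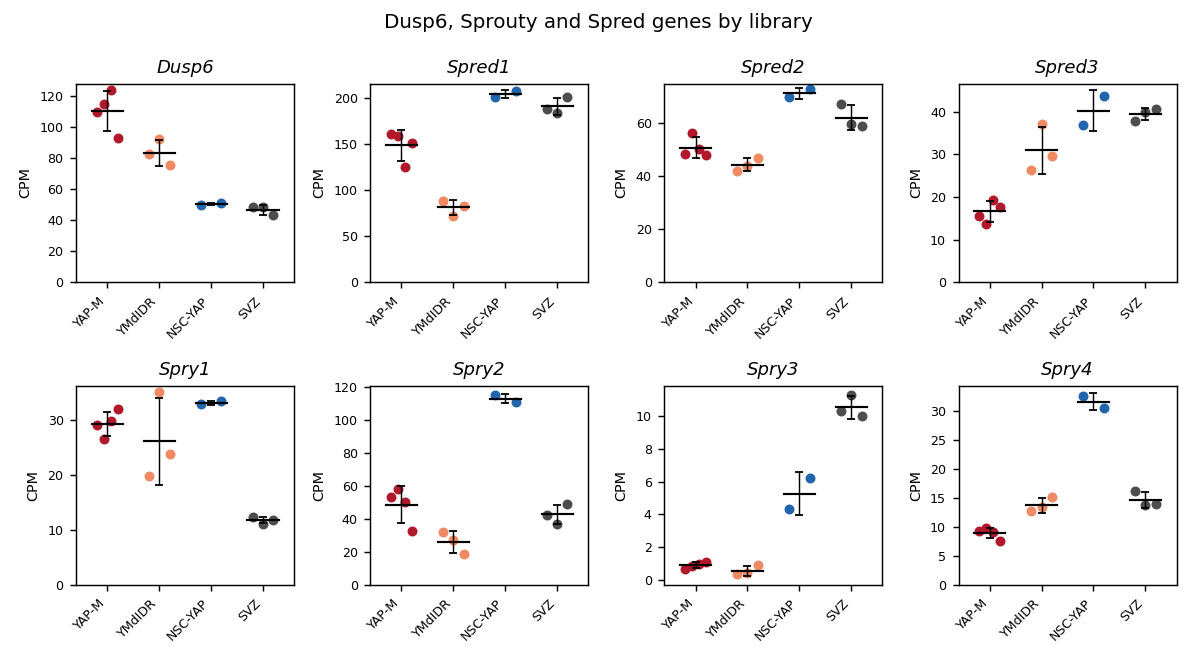
CPM of Dusp6, the 3 Spred genes and the 4 Sprouty genes in each library (points), with group mean (long bar) and SD (error bar) for YAP-M (n = 4), YMdIDR (n = 3), NSC-YAP (n = 2) and SVZ (n = 3). Dusp6 is highest in YAP-M, Spry2 and Spry4 in NSC-YAP, Spry3 in SVZ, and Spred1 is lowest in YMdIDR.

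Set side by side, the comparison of YAP-M with YMdIDR gave 9 members called higher: the secreted ligands Fgf1, Fgf3, Fgf5, Fgf9, Fgf16 and Fgf18, the intracellular Fgf12 and Fgf14, and the receptor Fgfr2. Another 9 had an adjusted p under 0.05 with a smaller fold: Spry2, Spred1, Fgf2, Fgfr3 and Dusp6 toward higher levels in YAP-M, and Spred3, Fgf11, Spry4 and Fgfrl1 toward lower levels. The number called higher ran between 6 without YMdIDR 2 and 12 without YMdIDR 1, and 1 member was called lower without YMdIDR 1. Fitted on the libraries of these groups alone, 5 members were called higher. The marker sums of 3 cell types did not overlap between the construct groups: the astrocyte sum was 1639 to 2376 CPM in YAP-M and 476 to 1488 CPM in YMdIDR, the endothelial sum 107 to 149.8 CPM in YAP-M and 54.9 to 83.3 CPM in YMdIDR, and the neural progenitor sum 1664 to 2283 CPM in YAP-M and 2655 to 3809 CPM in YMdIDR. Of 4 endothelial markers 2 were called higher in YAP-M, and of 5 progenitor markers 1 was called higher and 1 lower. The progenitor sum came mostly from Vim (1519 to 2005 CPM in YAP-M, 2208 to 3306 CPM in YMdIDR). Nes was likewise lower in YAP-M (75.2 to 130.3 CPM, against 350.1 to 438 CPM in YMdIDR). Sox2 went the other way (23.2 to 28.0 CPM in YAP-M, 5.27 to 14.3 CPM in YMdIDR), and Pax6 and Hes5 overlapped. The oligodendrocyte sum overlapped, at 569 to 2852 CPM in YAP-M and 311 to 1007 CPM in YMdIDR. Neuron, oligodendrocyte, astrocyte and endothelial sums were lowest, and the progenitor sum highest, in YMdIDR 2. Their part in the differences between the construct groups was not tested.

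**Figure D5:**
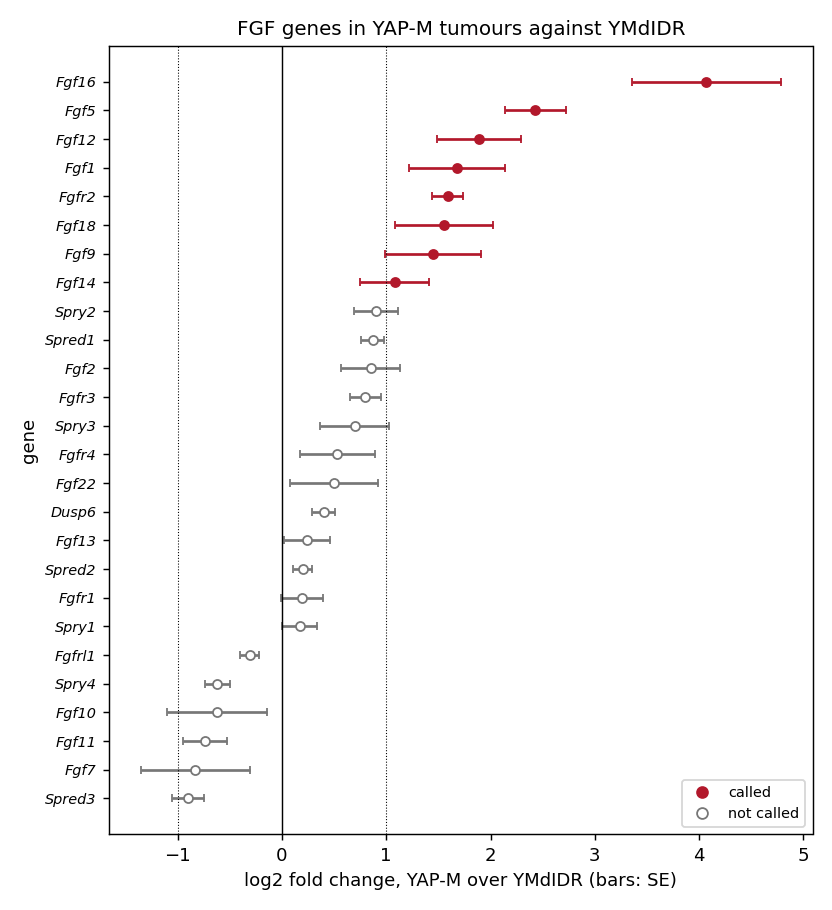
Log2 fold change of tested members in YAP-M over YMdIDR (points) with SE (bars), filled where called; dotted lines mark a log2 fold change of 1 in either direction. Fgf3 and Fgf8 are not drawn, because a group had 3 counts or fewer; filled points are all on the side of higher levels in YAP-M, with Fgf16 at 4.07 and Fgf5 at 2.43.

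Genes that carry the FGF signal onward were compared in the same fit. Of 21 genes of the cascade between receptor and ERK, 1 was called higher and 2 lower in YAP-M than in YMdIDR, with a median log2 fold change of 0.01, the same as over all tested genes, of which 9.61% were called higher and 6.78% lower. The ERK kinase gene Mapk3 fell, with a log2 fold change of -1.13 ± 0.11 (edgeR adjusted p = 5.51e-05), to 91.3 ± 13.6 CPM in YAP-M against 200.5 ± 14.1 CPM in YMdIDR. Its activating kinase gene Map2k2 fell, with a log2 fold change of -1.02 ± 0.11 (adjusted p = 0.000103), and the RAS exchange factor gene Sos1 was at 0.83 ± 0.08 and not called (adjusted p = 4.23e-05). Against SVZ, 1 rose and 4 fell in YAP-M (median -0.19 against -0.04 over all tested genes, of which 54.7% were called). The adaptor gene Shc1 was at 74.8 ± 5.33 CPM in YAP-M and 13.6 ± 0.325 CPM in SVZ (2.46 ± 0.11, edgeR adjusted p = 1.86e-08). In YMdIDR Shc1 averaged 99.7 ± 11.4 CPM. Against NSC-YAP, 1 rose and 5 fell in YAP-M (median -0.17 against 0.10 over all tested genes, of which 50.4% were called).

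In YAP-M against YMdIDR, 9.61% of all tested genes were called higher and 6.78% lower. Of 12 transcripts known to be induced by ERK, 0 rose and 2 fell there (median -0.08 against 0.01 over all tested genes). Another 3, the early response genes Egr1 (0.85 ± 0.16, edgeR adjusted p = 0.00171) and Fos (0.82 ± 0.18, adjusted p = 0.00411) and the ETS factor gene Etv1 (0.77 ± 0.28, adjusted p = 0.0478), had positive log2 fold changes past the adjusted threshold but under the fold needed for a call. These were also the 3 higher at an unadjusted p under 0.05, and DESeq2 called 0 higher. Those that fell were Etv4, at 9.27 ± 1.90 CPM in YAP-M and 25.7 ± 7.42 CPM in YMdIDR (-1.47 ± 0.19, edgeR adjusted p = 0.000214), and Fosl1, at 7.77 ± 1.77 and 16.5 ± 2.67 CPM in the same order of groups (-1.09 ± 0.20, adjusted p = 0.00141). Against SVZ, 7 rose and 2 fell in YAP-M (median 1.49 against -0.04), where 25.8% of all tested genes were called higher and 28.9% lower. Myc led, at 118 ± 11 CPM in YAP-M and 5.92 ± 0.509 CPM in SVZ, with 125 ± 20.8 CPM in YMdIDR. In YMdIDR 8 rose and 2 fell against SVZ (median 1.65 against -0.01; 26.9% of all tested genes higher, 29.6% lower), and in NSC-YAP 8 rose and 0 fell (median 1.21 against -0.10; 17.5% of all tested genes higher, 27.6% lower; 1 was lower by edgeR at an unadjusted p under 0.05, and DESeq2 called 0 lower). Against NSC-YAP, 5 rose and 4 fell in YAP-M (28.9% of all tested genes higher, 21.6% lower). The ETS factor genes Etv1, Etv4 and Etv5, known as FGF-responsive, all fell there: Etv5 averaged 30.1 ± 1.83 CPM in YAP-M and 201 ± 7.89 CPM in NSC-YAP (-2.74 ± 0.09, adjusted p = 2.58e-09), and Etv4 was at 168 ± 2.15 CPM in NSC-YAP. In the same comparison Dusp6 rose and Spry2 and Spry4 fell, as given above.

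Of 26 genes for co-receptors, heparan sulfate chains and FGF-binding proteins, 25 were tested. In YAP-M, 3 rose and 1 fell against YMdIDR, with a median of 0.45 against 0.01 over all tested genes, of which 16.4% were called. Against NSC-YAP 11 rose and 3 fell (median 0.57 against 0.10, with 50.4% of all tested genes called), and against SVZ 11 rose and 6 fell (median 0.62 against -0.04, with 54.7% called). The gene that fell against YMdIDR was Gpc2, a glypican of developing neurons, at 0.573 ± 0.0654 CPM in YAP-M and 4.04 ± 0.483 CPM in YMdIDR (-2.80 ± 0.18, edgeR adjusted p = 1.28e-05). The glypican gene Gpc4 averaged 321 ± 66.0 CPM in YAP-M and 341 ± 56.6 CPM in YMdIDR, against 7.84 ± 0.533 CPM in SVZ (5.36 ± 0.21 and 5.44 ± 0.21, adjusted p = 6.91e-09 and 5.42e-09). The syndecan gene Sdc1 averaged 40.9 ± 5.56 CPM in YAP-M, against 2.05 ± 0.411 CPM in SVZ (4.31 ± 0.20, edgeR adjusted p = 2.33e-08). In YMdIDR Sdc1 averaged 47.3 ± 8.79 CPM. Of 9 further modulators, 0 rose and 0 fell in YAP-M against YMdIDR by edgeR or by DESeq2, with 1 higher and 2 lower by edgeR at an unadjusted p under 0.05. In YAP-M, 4 rose and 3 fell against NSC-YAP (50.4% of all tested genes were called), and 2 rose and 2 fell against SVZ (54.7%). Among them was Flrt3, whose membrane protein binds FGF receptors. Flrt3 averaged 182 ± 35.7 CPM in YAP-M and 154 ± 33.2 CPM in YMdIDR, against 13.0 ± 0.218 CPM in NSC-YAP and 32.8 ± 0.233 CPM in SVZ.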

How the data were processed

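RNA-seq of 12 libraries was analysed from the read counts per gene that the authors deposited, 1 table per library, listing 53090 genes with position, strand, length and symbol. Per the submitters' processing notes, TopHat2 and the mouse build mm10 were used; the sources used here name neither the counting tool nor its use of strand. RNA was extracted with TRIzol and libraries were made with a TruSeq kit, per the labels' protocols. Groups were taken from the sample titles. Rows with the same symbol were summed (453 rows, none of them a member), which left 52850 symbols. All 12 libraries entered 1 fit in edgeR 4.0.16 (R 4.3.3), with TMM scaling and 1 coefficient per group, on the 18329 genes with at least 1 unscaled CPM in at least 2 libraries; SE is the log2 fold change over the square root of F. Folds against a group at 0 were set against 3 counts over that group, with the count of the other group taken as exact. Intervals cover counting error only, and floors only that of the group at 0. Members were named with every library's value where a group mean reached 10 CPM and a comparison called them, with Fgf5 and Fgf16 added after their values were seen; from each pathway list, genes were taken from the 3 with the smallest adjusted p in a comparison. The members and lists were chosen with earlier results of these data known. Library totals of 20784130 to 25463303 counts put 3 counts at 0.11 to 0.147 CPM. Alternatives were median-ratio scaling, no filter (38279 genes), DESeq2 1.42.0, a fit of the compared groups alone, a replicate block and leaving out each library. The fits were tested on simulated counts. For YAP-M against YMdIDR, 32 of 100 genes set at a 2-fold change were called, a change that lies at the fold threshold itself. Of 100 genes set at a 4-fold change 81 were called, with 6 false calls among the other genes. Promoter windows came from RefSeq, build GRCm38.p6, and figures from matplotlib 3.10.9.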

Additional observations from a re-analysis of the deposited data

Results flagged for a closer look

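Fgf5, Fgf16 and Fgfr2 had opposite signs against SVZ in the construct groups, being higher in YAP-M and lower in YMdIDR, and the difference between the construct groups was itself called. For Fgf5 that difference was 2.43 ± 0.29 (log2, YAP-M over YMdIDR, edgeR adjusted p = 0.000145; higher in 4 of 4 YAP-M libraries than in any YMdIDR library). For Fgf16 it was 4.07 ± 0.71 (adjusted p = 0.00152), and for Fgfr2 1.59 ± 0.15 (adjusted p = 5.26e-05), again with no overlap between the groups. Of these, only Fgf16 was called lower in YMdIDR than in SVZ, at -2.34 ± 0.75, while Fgf5 was at -0.91 ± 0.31 and Fgfr2 at -0.56 ± 0.16.

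Fgf8 stood far from the rest of its group in YAP-M 3, at 0.128 CPM, which is 3 counts, against 0 in the other YAP-M libraries. It was the only such value among the 28 tested members in YAP-M, the only group with enough libraries to look. Where all other libraries of a group are at 0, any count is flagged, so the flag carries no weight here. The usual chance rate of about 1 in 20 groups does not hold for such ties.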

How the results depend on the processing

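Of the counts of members called higher or lower, those that moved by over 1.5 times did so in the fits given next. On the compared groups alone, 5 instead of 9 were called higher in YAP-M than in YMdIDR, and 4 instead of 7 in YMdIDR than in NSC-YAP. These fits had fewer libraries to estimate the spread, and the filter was applied anew to their libraries. Fgf3 was then not tested in the first comparison, nor were Fgf5 and Fgf16 in the second. Leaving out single libraries gave 0 to 1 called lower in YAP-M than in YMdIDR and 6 to 12 called higher. The log2 fold change of Fgf7 between YAP-M and YMdIDR (-0.83) ran between -1.25 without YAP-M 2 and 0.26 without YMdIDR 2; the cause was not tested. Leaving out a library weakened 42 of the 1518 refitted single-gene values and brought 6 past the threshold; the other settings weakened 11 of 629 and brought 1 past it. Besides the calls given with the results, calls lost in at least 1 fit were Fgf1, Fgf2 and Fgf16 in YMdIDR against NSC-YAP, Fgf3, Fgf9 and Fgf22 in YAP-M against NSC-YAP, Fgf7, Fgf18 and Spry3 in NSC-YAP against SVZ, and Fgf3 in YAP-M against YMdIDR. Whether replicate numbers pair the samples was not settled. Deviations from the group means correlated at -0.0597 to 0.351 between samples of the same number (median 0.00825), against -0.284 to 0.245 between others. Between YAP-M and YMdIDR the pairs of the same number stood at 0.00825, 0.351 and 0.1, and the others at -0.284 to 0.245. Deviations within a group sum to 0, so these correlations are tied to each other and cannot decide the question. A replicate block gave 7 higher and 0 lower calls for YAP-M over YMdIDR, 11 and 10 over NSC-YAP, and 9 and 11 over SVZ. Between YAP-M and YMdIDR the block ended the calls of Fgf9 (1.38), Fgf14 (0.76) and Fgf3 (4.19) and brought Spry2 past the threshold (1.07). It also ended the calls of Fgf3 in YAP-M against NSC-YAP (4.09) and of Spry3 in NSC-YAP against SVZ (-0.90). With the block 10 members were called lower in YAP-M than in NSC-YAP, against 9 without it. A member that had not been called there thus gained a call, and it was not followed by name. Median-ratio scaling shifted the median of all genes by at most 0.0924 (log2).

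The NSC-YAP libraries differed from each other by a chi-square of 4.17 per gene, against 9.97 to 84.2 within the other groups, and all groups share 1 estimate of the spread. Spans of 16 members overlap a gene on the other strand. Members under about 1 CPM rest on few counts.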
